A study of Homo sapiens with 9 samples.

Results

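The Polycomb genes described here are 10 human genes that encode subunits of the Polycomb repressive complexes: EZH1, EZH2, EED and SUZ12 of PRC2, and RING1, RNF2, BMI1, PCGF1, CBX2 and BCOR of PRC1. They were chosen by name, and their symbols were matched to the Ensembl identifiers of the deposited count tables. All 10 were listed in both tables, out of 57820 identifiers in the Kyse150 table and 60683 in the TE11 table, and all 10 passed the filter on low counts in each of the 5 comparisons. Each was described in 4 groups of libraries from a pair of lines derived from squamous cell carcinoma of the esophagus, Kyse150 and TE11. Polyadenylated RNA was sequenced from 2 Kyse150 libraries with an shRNA against KDM2A, 2 Kyse150 control libraries (shNC in the labels), 2 libraries labelled TE11 knockdown with the KDM2A shRNA, and 3 TE11 control libraries. The shRNA was delivered by lentivirus, all groups were kept in the same medium, and a second shRNA against KDM2A is not named in the labels, so that less KDM2A and any off-target action of the hairpin cannot be told apart. The sources used here do not say whether the transduced cells were pools or clones.

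PRC2 methylates a lysine in the tail of histone H3 at silenced genes, through EZH2 or its paralog EZH1 as the catalytic subunit, with EED and SUZ12 as the core partners that the enzyme needs. PRC1 attaches ubiquitin to histone H2A through the paralogous ligases RING1 and RNF2, each bound to one PCGF protein, and the PCGF protein decides the type of complex. Canonical PRC1 holds BMI1 or PCGF2 and a CBX protein such as CBX2 that reads the PRC2 mark, whereas the PCGF1 complex holds BCOR and KDM2B, the paralog of KDM2A. KDM2A and KDM2B are demethylases of histone H3 that bind unmethylated CpG-rich DNA. In mouse epidermis, a squamous epithelium, PRC2 is known for keeping the CDKN2A locus and other regulators silent in proliferating progenitors.

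The libraries held 6052883 to 7167055 gene counts in Kyse150 and 8457767 to 12073098 in TE11. KDM2A was examined first, since it checks the labels. Its level was 107 and 104 CPM (counts scaled to the size of the library, within the line) in the Kyse150 knockdown libraries, against 172 and 175 in the Kyse150 control libraries, a log2 fold change of -0.71 (SE 0.07, adjusted p = 3.87e-09 in edgeR). In TE11 it was 126 and 140 CPM in the libraries labelled knockdown, against 120, 116 and 120 in the control libraries. KDM2A was called higher there (0.16, SE 0.07, adjusted p = 0.0335 in edgeR), which goes against the label. Results on these libraries are therefore given as labelled, and the comparisons that contain them cannot be given without them. A list of 8 epithelial genes drawn up for squamous epithelium (TP63, KRT5, KRT14, KRT6A, DSG3, CDH1, EPCAM, SFN) was detected in every group. Its summed level was 2105 to 2122 CPM in Kyse150 knockdown, 2370 to 2426 in Kyse150 control, 1982 to 2029 in labelled TE11 knockdown and 4070 to 4427 in TE11 control libraries. In Kyse150 its genes did not move together: TP63, KRT14 and DSG3 were called higher in the knockdown libraries. KRT5, CDH1, EPCAM and SFN were called lower there, and KRT6A did not pass. The columnar epithelium list (KRT8, KRT18, VIL1 and CDX2, the last at 0 in all libraries) summed to 7247 to 7808 CPM in Kyse150 knockdown, 6449 to 6538 in Kyse150 control, 6145 to 6351 in labelled TE11 knockdown and 2723 to 3063 in TE11 control libraries. The part of either list in the results was not tested. The leukocyte markers summed to at most 1.17 CPM, the endothelial markers to at most 7.94 and the fibroblast markers to at most 18.7, and PTPRC was at 0 in all 9 libraries. The labels name no batch and do not say what an independent replicate repeated, so each p-value reflects only how far these libraries vary, and that variation may be technical.

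The promoters of the 2 catalytic pairs are printed because 1 paralog of each pair was called in Kyse150 and the other was not: EZH1 and RNF2 changed, while EZH2 and RING1 did not pass the test. Each window runs from 250 bases before to 50 bases after the start of the gene, 5′ to 3′ on the strand of the gene, and was taken from RefSeq on GRCh38.p14. Of the 10 genes, 9 matched an entry, with 12 windows in all; CBX2 had none. Capitals mark a match to letters typical of E2F sites, searched on both strands: TTGGCGC is the first such motif, TTCGCGC is the second, and TTCCCGC is the third. No matches overlap. The EZH1 window is chr17:42744991-42745290 on the reverse strand, the EZH2 window shown chr7:148884242-148884541 on the reverse strand, the RNF2 window chr1:185045308-185045607 on the forward strand and the RING1 window chr6:33208250-33208549 on the forward strand. EZH2 has another window in the table, chr7:148883436-148883735, which holds 45 CG and none of the 3 motifs and is not printed.
EZH1: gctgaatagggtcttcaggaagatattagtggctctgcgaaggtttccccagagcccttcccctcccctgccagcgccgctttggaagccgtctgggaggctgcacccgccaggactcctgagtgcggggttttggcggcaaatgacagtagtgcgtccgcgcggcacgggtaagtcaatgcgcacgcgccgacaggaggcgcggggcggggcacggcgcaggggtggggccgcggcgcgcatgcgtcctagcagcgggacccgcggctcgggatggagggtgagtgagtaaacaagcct
EZH2: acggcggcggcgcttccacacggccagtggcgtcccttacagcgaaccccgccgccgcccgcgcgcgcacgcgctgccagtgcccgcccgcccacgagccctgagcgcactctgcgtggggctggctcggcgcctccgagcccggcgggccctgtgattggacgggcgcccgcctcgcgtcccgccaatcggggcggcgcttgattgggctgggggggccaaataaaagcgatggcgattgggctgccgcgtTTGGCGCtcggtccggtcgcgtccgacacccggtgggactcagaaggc
RNF2: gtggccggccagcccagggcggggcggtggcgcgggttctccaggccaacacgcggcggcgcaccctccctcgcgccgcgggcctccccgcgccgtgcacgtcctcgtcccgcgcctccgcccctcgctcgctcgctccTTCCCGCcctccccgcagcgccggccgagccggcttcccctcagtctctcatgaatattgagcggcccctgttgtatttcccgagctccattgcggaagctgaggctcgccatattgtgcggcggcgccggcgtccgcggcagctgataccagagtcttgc
RING1: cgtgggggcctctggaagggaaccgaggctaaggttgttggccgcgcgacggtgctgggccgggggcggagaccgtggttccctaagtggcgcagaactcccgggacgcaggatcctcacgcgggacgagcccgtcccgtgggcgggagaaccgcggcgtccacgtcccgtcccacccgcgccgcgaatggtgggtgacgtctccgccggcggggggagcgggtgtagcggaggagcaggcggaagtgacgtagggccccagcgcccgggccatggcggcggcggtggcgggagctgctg
All 4 windows are rich in the dinucleotide CG, the target of the zinc finger of KDM2A: it occurs 30 times in that of EZH1, 46 times in that of EZH2, 41 times in that of RNF2 and 41 times in that of RING1, against a median of 14 over all 35116 windows. Across the 12 windows of the 9 matched genes the count was 7 to 65, and 10 of the 12 lay above that median, as did 48.9% of all windows. One of the 3 motifs was found in 3 of the 12 windows (TTGGCGC in EZH2, TTCCCGC in RNF2 and SUZ12), and in 11.03% of all windows of the same length. RNF2, which fell in Kyse150, and RING1, which did not pass the test there, have the same count of CG. EZH1, which rose there, has a lower count than EZH2, which did not pass. Any link between the count of CG and the changes was not tested.

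In Kyse150, the libraries with the KDM2A shRNA carried more EZH1 and BCOR and less EED, SUZ12, BMI1 and RNF2 than the control libraries. RNF2, one of the 2 ubiquitin ligases of PRC1, fell most, to 0.431 times its control level, and EZH1, the less active methyltransferase of PRC2, rose most, to 1.91 times its control level. EZH2, RING1, PCGF1 and CBX2 did not pass the test. In counts, 2 of the 10 genes were called higher and 4 lower, against 24.8% called higher and 23.3% called lower among all 14060 genes tested (48.2% in either direction). The median log2 fold change was -0.19 over the 10 genes and 0.0023 over all genes tested. These are bulk RNA levels, in which fewer cells of a type and less RNA per cell cannot be told apart.

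Among the catalytic subunits of PRC2, EZH1 (chromosome 17, 42700275 to 42745049, reverse strand; all gene positions are GRCh38 by GENCODE release 29) stood at 41.4 and 42.4 CPM in the knockdown libraries, against 20.1 and 23.8 CPM in the control libraries. Its groups lay far apart, and the log2 fold change was 0.93 (SE 0.13, adjusted p = 1.01e-06 in edgeR). EZH2 (chromosome 7, 148807383 to 148884321, reverse strand), the methyltransferase that prevails in cycling cells, was at 41.9 and 43.7 CPM in the knockdown libraries and 53.2 and 47.9 CPM in the control libraries. The EZH2 groups did not overlap but lay close, and the change of -0.24 (95% interval -0.46 to -0.03) missed the threshold at an edgeR adjusted p of 0.0572. It passed with DESeq2's size factors (adjusted p = 0.04998) and without control replicate 2 (-0.32, adjusted p = 0.0415), both in edgeR.

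Both core partners fell. EED (chromosome 11, 86244544 to 86278813, forward strand), which binds the methyl mark and stimulates the enzyme, was at 24.6 and 24.4 CPM in the knockdown libraries, against 40.8 and 41.7 CPM in the control libraries. The replicates of each group nearly coincide, and the log2 fold change was -0.75 (SE 0.12, adjusted p = 1.20e-05 in edgeR). SUZ12 (chromosome 17, 31937018 to 32001045, forward strand), the scaffold of PRC2, was at 23.2 and 32.2 CPM in the knockdown libraries, against 43.0 and 37.6 CPM in the control libraries. Here the knockdown replicates lay further apart than the nearest libraries of the 2 groups, and the fall of -0.55 (SE 0.14, adjusted p = 0.00158 in edgeR) rested on knockdown replicate 1: without it the change was -0.33 (edgeR adjusted p = 0.0765).

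Among the PRC1 genes, RNF2 (chromosome 1, 185045364 to 185102608, forward strand) was at 13.4 and 16.0 CPM in the knockdown libraries, against 32.7 and 35.4 CPM in the control libraries, a log2 fold change of -1.21 (SE 0.15, adjusted p = 1.64e-07 in edgeR). Its paralog RING1 (chromosome 6, 33208495 to 33212722, forward strand) was at 48.7 and 41.4 CPM in the knockdown libraries and 40.9 and 48.2 CPM in the control libraries. The RING1 groups overlapped almost completely, with a change of 0.02 (95% interval -0.21 to 0.25, adjusted p = 0.904 in edgeR).

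BMI1 (chromosome 10, 22321211 to 22331484, forward strand), a PCGF protein of canonical PRC1, was at 20.0 and 21.3 CPM in the knockdown libraries, against 31.6 and 27.5 CPM in the control libraries (-0.52, SE 0.14, adjusted p = 0.00368 in edgeR). The call was lost without control replicate 1, where the change was -0.42 (edgeR adjusted p = 0.0590). BMI1 shares 23.4% of its exon bases, on the same strand, with the read-through gene COMMD3-BMI1, which held no counts in any library, so its level is uncertain. PCGF1 (chromosome 2, 74505043 to 74508580, reverse strand), which nucleates the complex with BCOR and KDM2B, was low in both groups, at 13.6 and 14.9 CPM in the knockdown libraries and 15.4 and 14.6 CPM in the control libraries. Its groups overlapped, and the interval of its change ran from -0.44 to 0.28 (edgeR adjusted p = 0.738).

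CBX2 (chromosome 17, 79778132 to 79787983, forward strand), a chromobox reader of the PRC2 mark, was at 27.1 and 33.0 CPM in the knockdown libraries and 30.9 and 34.7 CPM in the control libraries, with overlapping groups and an interval of -0.40 to 0.14 (edgeR adjusted p = 0.445). BCOR (chromosome X, 40049815 to 40177329, reverse strand), the corepressor subunit of the PCGF1 complex, was at 43.5 and 45.1 CPM in the knockdown libraries, against 30.3 and 34.7 CPM in the control libraries. Its groups did not overlap, and it rose by 0.45 on the log2 scale (SE 0.11, adjusted p = 0.00203 in edgeR). KDM2B, which brings that complex to CpG-rich DNA, was at 41.1 and 40.3 CPM in the knockdown libraries and 45.0 and 45.5 CPM in the control libraries, a change of -0.15 that did not pass the test (edgeR adjusted p = 0.244). The plot of member levels shows each of these values.

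In TE11, the libraries labelled knockdown carried more BMI1, PCGF1 and EED and less CBX2, EZH1, EZH2, BCOR and SUZ12 than the TE11 control libraries. CBX2 fell most, to 0.366 times its control level, and BMI1 rose most, to 2.48 times its control level. RNF2 and RING1, the 2 ligases, did not pass the test. Of the 10 genes, 3 were called higher and 5 lower, where 35.9% of all 16453 genes tested were called higher and 42.2% lower (78.1% in either direction), so the share of Polycomb genes called is near that of all genes. The median log2 fold change was -0.33 over the 10 genes and -0.09 over all genes tested.

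Both PRC2 methyltransferases were lower. EZH1 was at 10.8 and 13.2 CPM in the labelled knockdown libraries, against 23.8, 22.4 and 26.3 CPM in the control libraries (-1.01, SE 0.14, adjusted p = 1.09e-08 in edgeR). EZH2 was at 41.3 and 38.3 CPM in the labelled knockdown libraries, against 57.5, 57.1 and 55.9 CPM in the control libraries (-0.51, SE 0.09, adjusted p = 1.35e-06 in edgeR). In both genes every labelled knockdown library lay below every control library. The core partners went opposite ways: SUZ12 was at 78.2 and 76.6 CPM in the labelled knockdown libraries, against 99.2, 110 and 112 CPM in the control libraries (-0.47, SE 0.08, adjusted p = 4.97e-07 in edgeR). EED was at 58.4 and 66.8 CPM in the labelled knockdown libraries, against 47.7, 53.8 and 51.5 CPM in the control libraries (0.30, SE 0.09, adjusted p = 0.00192 in edgeR). The EED groups lay apart by less than the spread within each, and the call was lost without labelled knockdown replicate 2 (0.21, edgeR adjusted p = 0.113).

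In PRC1, BMI1 and PCGF1 rose. BMI1 was at 49.5 and 48.8 CPM in the labelled knockdown libraries, against 15.9, 23.4 and 20.1 CPM in the control libraries, a log2 fold change of 1.31 (SE 0.11, adjusted p = 2.86e-14 in edgeR). Even the highest control library held less than the lowest labelled knockdown library by a margin wider than the spread of the controls. PCGF1 was at 12.45 and 14.35 CPM in the labelled knockdown libraries, against 10.0, 9.95 and 8.94 CPM in the control libraries (0.48, SE 0.15, adjusted p = 0.00488 in edgeR), and this call was lost without labelled knockdown replicate 2 (0.38, edgeR adjusted p = 0.0931).

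CBX2 was at 21.1 and 20.6 CPM in the labelled knockdown libraries, against 59.3, 56.6 and 55.1 CPM in the control libraries (-1.45, SE 0.10, adjusted p = 1.94e-17 in edgeR), the largest change among the 10 genes in this comparison. BCOR was at 26.2 and 24.9 CPM in the labelled knockdown libraries, against 36.3, 35.8 and 34.9 CPM in the control libraries (-0.48, SE 0.11, adjusted p = 7.14e-05 in edgeR), with no overlap. RNF2 was at 24.9 and 24.4 CPM in the labelled knockdown libraries and 26.1, 30.1 and 28.2 CPM in the control libraries. That change of -0.19 missed the threshold (edgeR adjusted p = 0.117), and it passed with upper quartile scaling (-0.25, adjusted p = 0.0400) and without control replicate 1 (-0.25, adjusted p = 0.0406). RING1 was at 36.1 and 40.7 CPM in the labelled knockdown libraries and 43.0, 41.5 and 38.1 CPM in the control libraries, with overlapping groups and an interval of -0.28 to 0.11 (edgeR adjusted p = 0.406). KDM2B had a log2 fold change of -0.05 that did not pass (edgeR adjusted p = 0.642).

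A list of 15 genes of DNA replication and division (PCNA, MCM2 to MCM7 and others such as MKI67 and CDK1) was measured beside the Polycomb genes. In Kyse150 its summed level was 3058 to 3122 CPM in the knockdown libraries, against 4378 to 4458 CPM in the control libraries, and 14 of the 15 genes were called lower and 0 higher, beside 23.3% and 24.8% of all genes tested. In TE11 the sum was 4716 to 4809 CPM in the labelled knockdown libraries, against 3291 to 3367 CPM in the control libraries, with 13 genes called higher and 1 lower, beside 35.9% and 42.2% of all genes tested. The part of cycling in the changes of the Polycomb genes was not tested.

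The changes of the lines as labelled were then set against each other by testing the difference itself, the response of TE11 minus the response of Kyse150, in 1 fit of all 9 libraries. EED, BMI1, RNF2 and PCGF1 had the higher response in TE11 and EZH1, CBX2 and BCOR the lower one, while EZH2, SUZ12 and RING1 did not pass. That is 4 of 10 higher and 3 lower, beside 33.8% and 33.1% of all 15895 genes tested (66.9% in either direction). EZH1 differed most, by -1.92 (SE 0.19, adjusted p = 1.48e-13 in edgeR): it was called lower in TE11 as labelled and higher in Kyse150. BMI1 differed by 1.85 (SE 0.18, adjusted p = 2.08e-13 in edgeR), called higher in TE11 as labelled and lower in Kyse150. EED and BCOR also had calls of opposite sign in the lines, with differences of 1.07 (SE 0.15, adjusted p = 5.51e-09 in edgeR) and -0.91 (SE 0.16, adjusted p = 9.51e-07 in edgeR).

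For RNF2 the difference was 1.05 (SE 0.19, adjusted p = 1.66e-06 in edgeR) and for CBX2 -1.30 (SE 0.16, adjusted p = 3.23e-10 in edgeR); each was called in 1 of the lines. The difference of PCGF1, 0.58 (SE 0.24, adjusted p = 0.0258 in edgeR), was lost in 8 of its 15 alternatives, at adjusted p from 0.0540 to 0.119, among them each fit without Kyse150 knockdown replicate 1, Kyse150 control replicate 1, labelled TE11 knockdown replicate 2 or TE11 control replicate 3. SUZ12 was called lower in both lines, and its responses differed by 0.10 with an interval of -0.19 to 0.40 (edgeR adjusted p = 0.572). EZH2 differed by -0.25 with an interval of -0.53 to 0.03 (edgeR adjusted p = 0.113), and passed with upper quartile scaling (-0.37, adjusted p = 0.0181) and with a minimum mean of 2 CPM (-0.30, adjusted p = 0.0498). RING1 differed by -0.08 with an interval of -0.39 to 0.22 (edgeR adjusted p = 0.663).

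**Figure D1:**
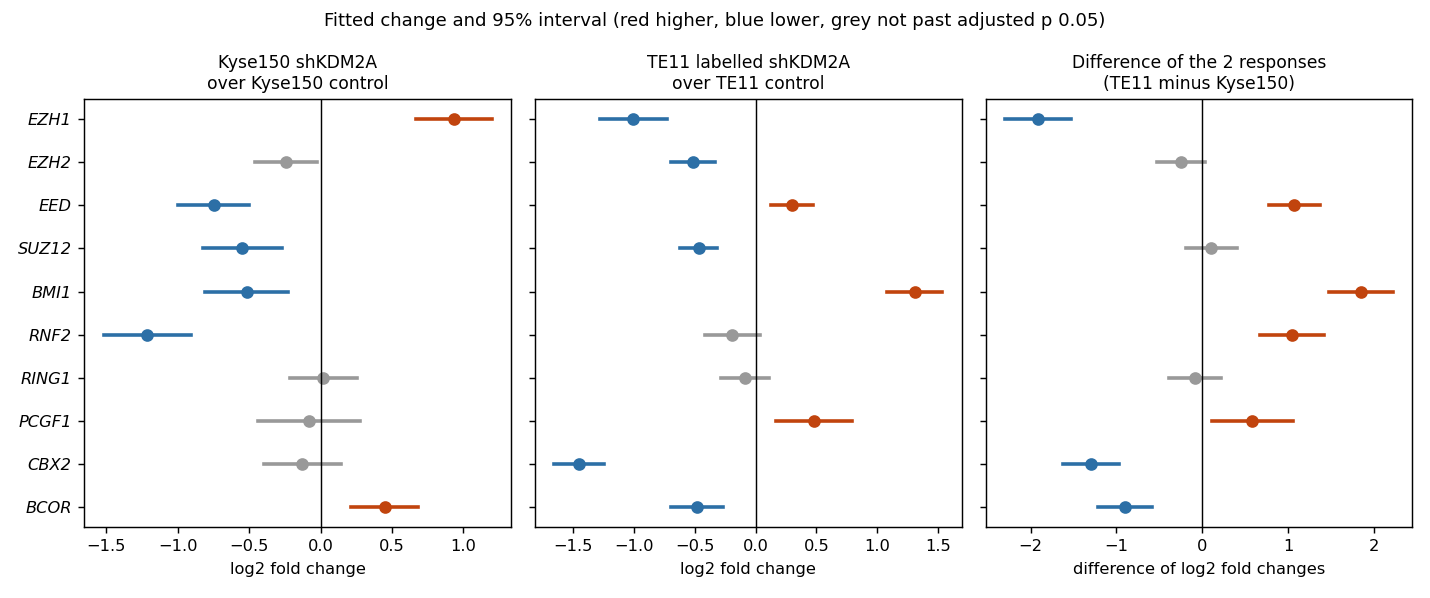
Fitted log2 fold change of each Polycomb gene with its 95% interval in Kyse150 (left), in TE11 as labelled (middle) and the difference of the 2 responses, TE11 minus Kyse150 (right); red is called higher, blue called lower and grey not past an edgeR adjusted p of 0.05. EZH1, EED, BMI1 and BCOR lie on opposite sides of 0 in the left and middle panels, with differences of -1.92, 1.07, 1.85 and -0.91.

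Levels across the 4 groups were placed on 1 scale (CPM scaled over all 9 libraries), on which line, count table and annotation cannot be told apart. TE11 control libraries held more SUZ12, CBX2, EED and EZH2 and less PCGF1 and BMI1 than Kyse150 control libraries: 4 genes higher and 2 lower, beside 43.7% and 36.0% of all genes tested (79.7% in either direction). SUZ12 differed most of the 10 genes, at 111 ± 7.09 CPM in TE11 control libraries (SD, n = 3) and 39.6 ± 3.78 CPM in Kyse150 control libraries (SD, n = 2), a log2 difference of 1.49 (SE 0.09, adjusted p = 1.55e-21 in edgeR). Of all genes tested, 45.0% differed by more than 1 on the log2 scale between these groups. CBX2 was at 59.0 ± 2.25 CPM in TE11 control libraries (SD, n = 3) and 32.2 ± 2.65 CPM in Kyse150 control libraries (SD, n = 2), a difference of 0.88 (SE 0.10, adjusted p = 1.29e-11 in edgeR). The other differences of this comparison were smaller, at 0.38 for EED (edgeR adjusted p = 0.000244), 0.24 for EZH2 (adjusted p = 0.0111), -0.56 for PCGF1 (adjusted p = 0.00114) and -0.50 for BMI1 (adjusted p = 0.000297). The EZH2 call was lost without Kyse150 control replicate 2 (0.18, edgeR adjusted p = 0.158). In a fit with no library labelled TE11 knockdown, chosen after the data were seen, 6 of the 10 genes were called, beside 80.2% of all 15458 genes tested.

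The libraries labelled TE11 knockdown were also set against the Kyse150 control libraries, with which they share neither table nor line label. This pair was chosen because its groups had correlated most closely between the tables in an earlier look at these data. Here 21.7% of all genes tested differed by more than 1 on the log2 scale. That share was 41.9% between labelled TE11 knockdown and TE11 control libraries, and 45.0% between the control groups. Between Kyse150 knockdown and control libraries it was 10.3%. As the pair was chosen for its closeness, a low share was partly fixed by that choice, and nothing is read from it. The cause was not tested. The labelled TE11 knockdown libraries held more SUZ12, BMI1 and EED and less EZH1, CBX2, RNF2 and EZH2 than the Kyse150 control libraries. That is 3 genes higher and 4 lower, beside 29.1% and 24.5% of all 15895 genes tested (53.6% in either direction). SUZ12 was at 81.1 ± 1.48 CPM in the labelled TE11 knockdown libraries (SD, n = 2) and 39.6 ± 3.78 CPM in the Kyse150 control libraries (SD, n = 2), a difference of 1.03 (SE 0.10, adjusted p = 7.43e-13 in edgeR). BMI1 differed by 0.83 (edgeR adjusted p = 1.14e-07), EED by 0.70 (adjusted p = 4.46e-08), EZH1 by -0.77 (adjusted p = 2.58e-05) and CBX2 by -0.56 (adjusted p = 0.000128). The smaller differences of RNF2 (-0.37, edgeR adjusted p = 0.0113) and EZH2 (-0.25, adjusted p = 0.0332) were lost in 3 and 5 of their 15 alternatives. These include the fits without labelled TE11 knockdown replicate 2 (RNF2 adjusted p = 0.0742, EZH2 adjusted p = 0.242), without Kyse150 control replicate 2 for RNF2 (adjusted p = 0.118), and for EZH2 without Kyse150 control replicate 1 (adjusted p = 0.289) or labelled TE11 knockdown replicate 1 (adjusted p = 0.0522).

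On that scale the order of the groups differed from gene to gene. EZH1 was highest in Kyse150 knockdown libraries (40.9 ± 0.66 CPM) and lowest in labelled TE11 knockdown libraries (12.6 ± 1.75; SD, n = 2 each), with the control groups between them, which overlapped. EED and SUZ12 were higher in both TE11 groups than in both Kyse150 groups, and Kyse150 knockdown libraries were lowest, at 23.9 ± 0.11 CPM for EED and 27.1 ± 6.17 CPM for SUZ12 (SD, n = 2). RNF2 was lowest in Kyse150 knockdown libraries too, at 14.4 ± 1.80 CPM (SD, n = 2), and 25.8 ± 0.48 CPM in the next group, the labelled TE11 knockdown libraries (SD, n = 2). BMI1 was highest in labelled TE11 knockdown libraries (51.5 ± 0.62 CPM; SD, n = 2), and its lowest groups, TE11 control and Kyse150 knockdown, overlapped. All neighbouring groups overlapped for RING1, whose group means ran from 40.2 to 44.0 CPM. CBX2 was highest in TE11 control libraries and lowest in labelled TE11 knockdown libraries (21.8 ± 0.42 CPM; SD, n = 2), and its Kyse150 groups overlapped. PCGF1 was lowest in TE11 control libraries (9.98 ± 0.64 CPM; SD, n = 3), with neighbouring groups that overlapped above it. EZH2 was highest in TE11 control libraries (58.9 ± 0.95 CPM; SD, n = 3), and the Kyse150 knockdown and labelled TE11 knockdown groups, which overlapped, were lowest. No neighbouring groups of BCOR overlapped: it was highest in Kyse150 knockdown libraries (43.3 ± 1.12 CPM; SD, n = 2) and lowest in labelled TE11 knockdown libraries (26.8 ± 1.02 CPM; SD, n = 2).

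Levels of different genes were compared per length, as CPM within the line per kilobase of coding transcript exons (CPM per kb). RING1 was the most abundant of the 10 genes in 3 groups, at 25.7 ± 2.96 CPM per kb in Kyse150 knockdown, 25.4 ± 2.95 in Kyse150 control and 21.9 ± 1.87 in labelled TE11 knockdown libraries (SD, n = 2 each). In TE11 control libraries SUZ12 led with 23.8 ± 1.53 CPM per kb over RING1 with 23.3 ± 1.43 (SD, n = 3), and their ranges overlapped. BCOR was lowest in both control groups, at 3.92 ± 0.37 CPM per kb in Kyse150 (SD, n = 2) and 4.30 ± 0.08 in TE11 (SD, n = 3). RNF2 was lowest in Kyse150 knockdown libraries (4.08 ± 0.51) and EZH1 in labelled TE11 knockdown libraries (2.59 ± 0.37; SD, n = 2 each).

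The make-up of 3 subunit families was computed from these levels and was not tested. EZH1 made up 39.03% to 39.49% of the summed EZH1 and EZH2 per kb in Kyse150 knockdown libraries, against 19.9% to 24.6% in Kyse150 control libraries. In TE11 the EZH1 share was 14.7% to 18.6% in labelled knockdown libraries, against 20.6% to 23.7% in control libraries. EZH2 was thus the more abundant methyltransferase in all 9 libraries, by the narrowest margin in the Kyse150 knockdown. RNF2 made up 11.8% to 15.8% of the ligase pair in Kyse150 knockdown libraries, against 26.29% to 27.97% in Kyse150 control libraries, and 22.5% to 25.1% in labelled TE11 knockdown libraries, against 22.8% to 26.4% in TE11 control libraries. The ranges of RNF2 lay apart in Kyse150 and overlapped in TE11.

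Among 5 PCGF genes listed in both tables (BMI1, PCGF1, PCGF3, PCGF5, PCGF6), BMI1 made up 17.5% to 17.8% per kb in Kyse150 knockdown libraries, against 22.0% to 23.5% in Kyse150 control libraries. In TE11 it made up 28.5% to 29.8% in labelled knockdown libraries, against 17.1% to 21.8% in control libraries. PCGF2 has its identifier in the TE11 table alone and was not used here. In CPM within the line, PCGF2 was at 29.2 ± 1.01 in labelled TE11 knockdown libraries (SD, n = 2) and 27.1 ± 1.44 in TE11 control libraries (SD, n = 3). The TE11 shares leave this level out. The 4 core PRC2 genes together summed to 33.7 to 36.4 CPM per kb in Kyse150 knockdown libraries, against 39.9 to 41.8 in Kyse150 control libraries, and to 51.8 to 53.1 in labelled TE11 knockdown libraries, against 61.3 to 65.2 in TE11 control libraries, on the scale of all 9 libraries. A share can move with any gene of its family, so these values describe unequal change and do not show that one gene stayed constant.

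**Figure D2:**
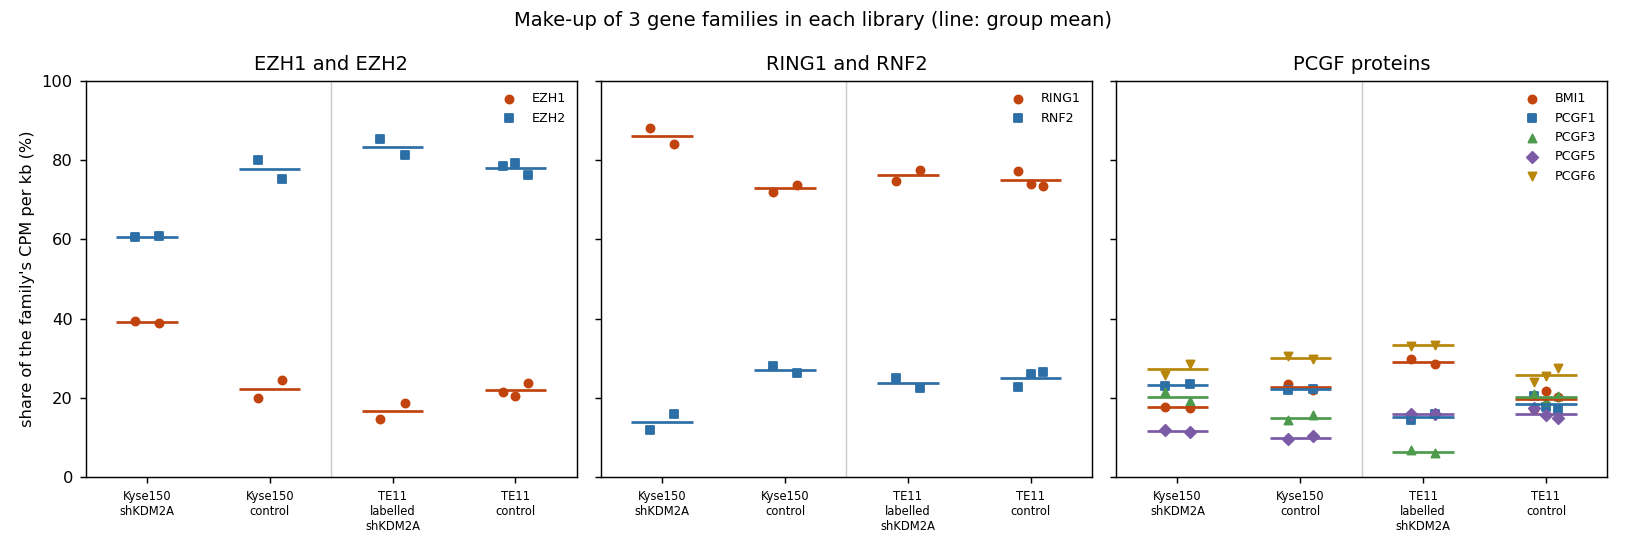
Share of each gene in the summed CPM per kb of its family, in percent, for the EZH pair, the RING pair and 5 PCGF genes; points are libraries and lines group means. EZH1 makes up 39.03% to 39.49% of its pair in Kyse150 knockdown libraries, RNF2 makes up 11.8% to 15.8% of its pair there, and BMI1 makes up 28.5% to 29.8% of the PCGF genes in labelled TE11 knockdown libraries.

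Other genes of the pathway were taken from lists of fixed membership. Of 10 further PRC2 genes, 8 were tested in Kyse150, with 2 called higher and 2 lower, beside 48.2% of all genes called in either direction, so the share is near that of all genes. PHF1, a Polycomb-like protein that brings PRC2 to CpG islands, was at 27.4 ± 0.61 CPM in the knockdown libraries and 13.7 ± 0.38 CPM in the control libraries (SD, n = 2 each), a log2 fold change of 1.0 (edgeR adjusted p = 5.91e-06). Its paralog PHF19 went the other way, at 111 ± 3.24 CPM in the knockdown libraries and 153 ± 1.26 CPM in the control libraries (SD, n = 2 each; -0.46, edgeR adjusted p = 6.09e-06). JARID2, a cofactor that aids recruitment of PRC2, rose by 0.30 (edgeR adjusted p = 0.0155), and RBBP4, the histone-binding subunit, fell by 0.21 (edgeR adjusted p = 0.0162). In TE11, 9 of the 10 were tested, with 2 called higher and 5 lower, also near the share over all genes (78.1% in either direction). PHF19 was at 129 ± 10.4 CPM in labelled knockdown libraries (SD, n = 2) and 31.1 ± 1.69 CPM in control libraries (SD, n = 3; 2.05, edgeR adjusted p = 3.49e-26). EPOP, a PRC2 cofactor listed in the TE11 table alone, fell by 3.00 (edgeR adjusted p = 1.97e-17), JARID2 by 1.05 (adjusted p = 4.42e-15) and MTF2, the third Polycomb-like protein, by 1.03 (adjusted p = 6.74e-13). The list's median log2 fold change was -0.17 in Kyse150 and -0.21 in TE11.

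Of 22 further PRC1 genes, 21 were tested in Kyse150, with 4 called higher and 4 lower (38.1% of those tested, beside 48.2% of all genes) and a median of 0.02. BCORL1, the paralog of BCOR, was at 32.4 ± 0.54 CPM in the knockdown libraries and 8.40 ± 0.07 CPM in the control libraries (SD, n = 2 each), a log2 fold change of 1.95 (edgeR adjusted p = 1.87e-10). BCOR and BCORL1 were thus both called higher in this line. CBX7, another chromobox reader, rose by 0.87 (edgeR adjusted p = 4.78e-06), while L3MBTL2, of the PCGF6 complex, fell by 0.88 (adjusted p = 9.61e-06) and SKP1, a partner in the BCOR complex, by 0.41 (adjusted p = 0.00138). In TE11 all 22 were tested, with 10 called higher and 7 lower (77.3%, beside 78.1% of all genes) and a median of 0.10. MGA, the scaffold of the PCGF6 complex, was at 72.2 ± 1.17 CPM in labelled knockdown libraries (SD, n = 2) and 24.3 ± 2.63 CPM in control libraries (SD, n = 3; 1.57, edgeR adjusted p = 1.10e-19). SCML2 fell by 3.19 (edgeR adjusted p = 6.83e-19). PHC2, a polyhomeotic subunit of canonical PRC1, rose by 1.02 (edgeR adjusted p = 1.88e-15) and AUTS2 rose by 1.33 (adjusted p = 2.41e-13). BCORL1 was called lower in TE11 as labelled (-0.57, edgeR adjusted p = 0.00390), as was BCOR.

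A list of 14 genes, of enzymes described as opposing Polycomb silencing and of their partners, held 13 tested genes in each line. Membership does not show that each partner itself opposes silencing. In Kyse150, 7 were called higher and 1 lower (61.5% of those tested, beside 48.2% of all genes), with a median of 0.21. OGT, a glycosyltransferase bound to the deubiquitinase BAP1, was at 256 ± 0.45 CPM in the knockdown libraries and 142 ± 0.55 CPM in the control libraries (SD, n = 2 each; 0.85, edgeR adjusted p = 1.76e-11). Its partner HCFC1 was at 203 ± 2.61 CPM in the knockdown libraries and 342 ± 15.3 CPM in the control libraries (SD, n = 2 each; -0.75, edgeR adjusted p = 6.66e-11). FOXK1, which tethers BAP1 to DNA, rose by 0.66 (edgeR adjusted p = 2.84e-08), as did KDM6B, a demethylase of the PRC2 mark, by 0.69 (adjusted p = 5.37e-06). In TE11, 7 were called higher and 3 lower (76.9%, near the 78.1% of all genes), with a median of 0.19. OGT and HCFC1 had calls opposite to those in Kyse150. HCFC1 was at 262 ± 15.8 CPM in labelled knockdown libraries (SD, n = 2) and 96.4 ± 5.62 CPM in control libraries (SD, n = 3; 1.44, edgeR adjusted p = 1.42e-23). OGT was at 66.0 ± 2.97 CPM in labelled knockdown libraries (SD, n = 2) and 199 ± 16.0 CPM in control libraries (SD, n = 3; -1.59, edgeR adjusted p = 7.37e-23). BAP1 rose by 0.80 (edgeR adjusted p = 4.70e-13) and its cofactor ASXL2 by 0.78 (adjusted p = 2.45e-11). The differences between the lines' responses were 2.22 for HCFC1 (edgeR adjusted p = 5.02e-30) and -2.42 for OGT (adjusted p = 1.31e-29).

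**Figure D3:**
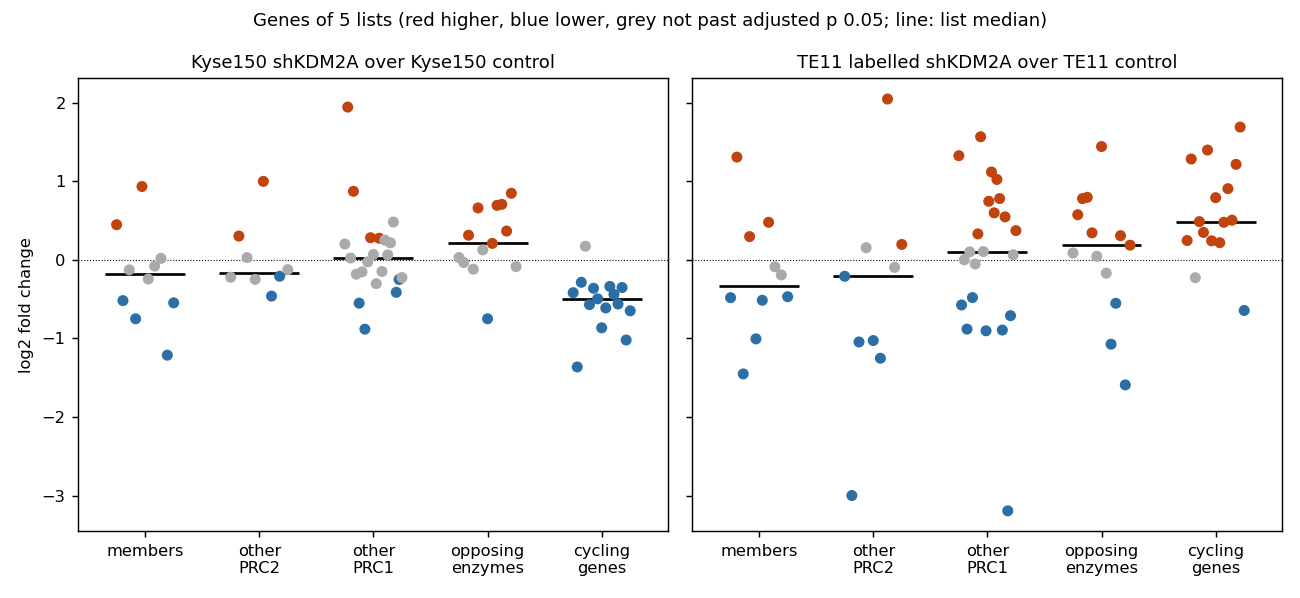
Log2 fold change of every tested gene of 5 lists in Kyse150 (left) and in TE11 as labelled (right); red is called higher, blue called lower and grey not past an edgeR adjusted p of 0.05, and lines are list medians. The 15 cycling genes lie mostly below 0 in Kyse150 (median -0.50) and mostly above 0 in TE11 (median 0.49), while the Polycomb genes have medians of -0.19 and -0.33.

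Of 40 developmental and cell-cycle genes widely described as Polycomb targets, 11 had enough counts to be tested in Kyse150, and 2 were called higher and 1 lower, beside 48.2% of all genes called in either direction. CCND2, a cyclin, was at 384 ± 6.75 CPM in the knockdown libraries and 520 ± 7.26 CPM in the control libraries (SD, n = 2 each; -0.44, edgeR adjusted p = 1.64e-07). TBX2, a T-box factor, was at 3.65 ± 0.10 CPM in the knockdown libraries and 1.43 ± 0.17 CPM in the control libraries (SD, n = 2 each; 1.33, edgeR adjusted p = 0.00696). TBX2 and GATA2, the genes called higher, passed the filter on low counts through the knockdown libraries, where they were higher. TBX2 had 9 and 11 counts in the control libraries, and GATA2 had 3 and 4. These calls are therefore a description, and nothing is read from them. In TE11, 24 of the 40 were tested, with 8 called higher and 15 lower, beside 35.9% and 42.2% of all genes tested. Of these 24, 7 had 0 counts in the labelled knockdown libraries and passed the filter on low counts through the control libraries alone, so they had to differ. GATA2, TBX15, NKX2-1, NKX2-5 and BMP4, with at most 4 counts in a labelled knockdown library, passed the same way. TBX2 and CDKN2B, with 1 to 3 and 5 to 10 counts in the control libraries, passed through the labelled knockdown libraries alone. The numbers of calls are therefore given as a description, and nothing is read from them.

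CCND2 was at 275 ± 2.40 CPM in the labelled TE11 knockdown libraries (SD, n = 2) and 9.40 ± 0.53 CPM in the TE11 control libraries (SD, n = 3; 4.87, edgeR adjusted p = 4.09e-40). CDKN2A, the cell-cycle inhibitor locus that BMI1 is known to repress, was at 111 ± 2.64 CPM in the labelled knockdown libraries (SD, n = 2) and 7.68 ± 0.74 CPM in the control libraries (SD, n = 3; 3.85, edgeR adjusted p = 2.91e-33). BMI1 and CDKN2A were thus both called higher in this comparison. FOXD1 was at 61.3 ± 3.80 CPM in the labelled knockdown libraries (SD, n = 2) and 1.51 ± 0.60 CPM in the control libraries (SD, n = 3; 5.34, edgeR adjusted p = 1.49e-30). WNT5A, a secreted ligand, had 0 counts in both labelled knockdown libraries and 74.5 ± 6.80 CPM in the control libraries (SD, n = 3), at least 436-fold lower when set against 3 counts over the group. It is among the genes at 0 that passed the filter through the control libraries alone, so its values are a description only. For comparison, the Kyse150 knockdown and control libraries averaged 384 and 520 CPM of CCND2, 156 and 140 CPM of CDKN2A, 0.40 and 1.21 CPM of FOXD1, and 0.08 and 0 CPM of WNT5A.

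For each Polycomb gene the most similar pattern over the 9 libraries was sought among 11262 genes, by the root mean square difference in centred log2(CPM + 1). The nearest gene to EZH2 was NCAPG2 (0.0587), to EED HMGB1 (0.0702), to SUZ12 PPP1CB (0.0775) and to EZH1 MGAT4B (0.104). Among the PRC1 genes it was TMEM53 for RING1 (0.0621), SFPQ for RNF2 (0.117), SDHD for BMI1 (0.0830), CSNK2A2 for PCGF1 (0.0587), STAT6 for CBX2 (0.0985) and AKR1B1 for BCOR (0.0596). The median difference from all genes compared was 0.472 to 0.926, depending on the gene. The genes' own ranges over the 9 libraries ran from 0.32 for RING1, whose neighbouring groups all overlapped, to 2.30 for SUZ12 on this log2 scale. Distances of different genes are therefore not directly comparable. None of the nearest genes was another Polycomb gene of the 10. These are very few among the 11262 genes compared, so nothing is read from that.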

How the data were processed

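Total RNA was taken up in Trizol, per the labels' protocols; messenger RNA was enriched with oligo(dT) beads and libraries were sequenced in pairs on an Illumina HiSeq Xten. The deposited values are whole-number counts per gene, not normalized, which the authors made with HISAT2 2.1.0 and HTSeq 0.9.1, per the submitters' processing notes, which also name bcl2fastq 2.19 and DESeq2. Those notes list GRCh37.p13 and GRCh38.p13 as builds but assign neither to a table, and the sources used here do not state the strand setting of the counting. Fragments on no gene (42.3% to 44.5% of a column), aligned to more than 1 place (2.94% to 6.78%) or ambiguous (1.85% to 2.72%) stayed out of library sizes and tests.

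Genes passed filterByExpr with a count of at least 10 and a total of at least 15. TMM scaling and the robust quasi-likelihood test of edgeR 4.0.16 in R 4.3.3 followed, with no term beside the group. Genes were called at a Benjamini-Hochberg adjusted p under 0.05, with the adjustment made across every tested gene. Each line was fitted alone; differences between responses and lines came from 1 fit of all 9 libraries over the 52165 identifiers in both tables. Symbols came from a table of gene names and GENCODE 29, which named 90.5% of Kyse150 and 100% of TE11 identifiers to 3 digits. Standard errors and 95% intervals come from the fitted model. The bound for a gene at 0 covers counting error only, as PCR copies of a molecule were not marked. Replicates of a group varied beyond counting noise (chi-square per degree of freedom 1.62 to 4.92). Each library was taken as 1 sample, and this variation does not show that the replicates are independent. The tests were tried on simulated data first. That simulation gave all genes the same dispersion and changed far fewer genes than were called here. It therefore does not show how the tests behave on these data. Alternatives were DESeq2 1.42.0, other scalings and filters, the replicate number as a block, 1 fit of all libraries and each library left out.

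The genes, lists and comparisons were chosen with earlier results of these data known. Named beyond the 10 genes were KDM2A, KDM2B and the nearest gene by pattern at a mean of 5 CPM or more. From each pathway list, the 4 called genes with the smallest p and a mean of 2 CPM or more in a line were named. Cycling genes and markers were given as sums, with the calls of single squamous markers in Kyse150. Further PCGF genes were named for the family shares, and target genes that passed the filter through 1 group for that reason. From the list of further PRC1 genes, 1 gene is not reported here.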

Additional observations from a re-analysis of the deposited data

Results flagged for a closer look

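For 7 of the 10 Polycomb genes the response of TE11 as labelled and the response of Kyse150 differed in a test of the difference itself (edgeR, 1 fit of all 9 libraries). The difference, TE11 minus Kyse150 on the log2 scale, was -1.92 for EZH1, 1.85 for BMI1, -1.30 for CBX2, 1.07 for EED, 1.05 for RNF2, -0.91 for BCOR and 0.58 for PCGF1. All of these rest on the libraries labelled TE11 knockdown, in which KDM2A was called higher than in the TE11 control libraries, and 66.9% of all genes tested differed in the same way. The difference of PCGF1 did not hold in 8 of its 15 alternatives.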

How the results depend on the processing

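The number of Polycomb genes called stayed at 5 to 7 in Kyse150, 6 to 9 in TE11 as labelled, 6 to 8 for the difference of the responses, 4 to 7 between the control groups and 5 to 8 between labelled TE11 knockdown and Kyse150 control libraries, over every alternative run. Over all genes, DESeq2 called 4337 genes in Kyse150, where edgeR called 6771; the cause was not tested. With each library left out the counts over all genes ran from 5409 to 5916 in Kyse150, 11827 to 12596 in TE11 and 9962 to 10533 for the difference. Testing with no filter moved the median of all genes to -0.46 in TE11 and to -0.49 for the difference.

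Changes of sign met genes that did not pass the test in either setting: RING1 in Kyse150 (-0.11 to 0.14 over fits that each left out a library), in TE11 (-0.17 to 0.0018), in the difference (-0.21 to 0.045; 0.039 and 0.0022 among them), between the control groups (-0.16 to 0.081) and against Kyse150 control libraries (-0.23 to 0.011); CBX2 in Kyse150 (-0.28 to 0.0065); PCGF1 in labelled TE11 knockdown against Kyse150 control libraries (-0.17 to 0.035); and SUZ12 in the difference (-0.12 to 0.34, and -0.016 with upper quartile scaling). BCOR was called in 5 of 15 alternatives against Kyse150 control libraries and in 3 of 16 between the control groups.

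The replicate numbers of the titles were tried as a block. Deviations of same-numbered libraries correlated at -0.07 in Kyse150 and at 0.007 and -0.015 in TE11, where all pairings ran from -0.02 to 0.02. With 2 libraries in a group their deviations mirror each other, so the 2 Kyse150 pairs hold 1 value. With 2 pairs a line, the number was not taken to pair libraries. The replicate block called 6395 genes in Kyse150, 12218 in TE11, 10211 for the difference, 11297 between the control groups and 6802 against Kyse150 control libraries. Among the Polycomb genes it called 6 in Kyse150 and 8 in TE11, 6 for the difference (PCGF1 at 0.53, edgeR adjusted p = 0.0703), 4 between the control groups (EED at adjusted p = 0.0508 and EZH2 at 0.0678) and 5 against Kyse150 control libraries (EZH2 at adjusted p = 0.134 and RNF2 at 0.115). Depth was low for PCGF1, with 91 to 129 counts a library, for RNF2 in Kyse150 knockdown libraries (90 and 99 counts) and for EZH1 in labelled TE11 knockdown libraries (93 and 119 counts).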
